A study of Homo sapiens with 6 samples.

Results

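The genes described here are 57 chromatin modifiers out of 20030 gene symbols with a value in every library. They were chosen as a list of symbols by complex or enzyme class: 15 subunits of Polycomb repressive complex 1 (PRC1), 5 of Polycomb repressive complex 2 (PRC2), 8 genes of DNA methylation, 11 SWI/SNF subunits, 10 zinc-dependent histone deacetylases (HDACs), 4 sirtuins and 4 histone acetyltransferases. Sequenced RNA came from 6 human samples whose labels name the ovarian carcinoma line SKOV3. Of these, 3 came from cells kept for 24 h with the vehicle, 5% trehalose, and 3 from cells kept for 24 h with recombinant human CCL20 (rhCCL20) dissolved in that vehicle. CCL20 is a chemokine that signals through the receptor CCR6. The labels give neither the dose nor whether replicates were separate cultures, so p-values reflect a spread between libraries that may be only technical.

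Chromatin modifiers set which genes can be read. PRC2 methylates a lysine of histone H3 through its catalytic subunit EZH2 or EZH1, and PRC1 adds ubiquitin to histone H2A through RING1 or RNF2, together with a PCGF subunit such as BMI1; both are known for keeping developmental genes silent. DNMT enzymes methylate cytosines and TET enzymes oxidise the methyl group, SWI/SNF complexes slide or evict nucleosomes using ATP, and acetyltransferases and deacetylases add and remove acetyl groups on histone tails. In ovarian carcinoma the family is known mainly for loss of the SWI/SNF subunit ARID1A and for high EZH2.

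Values are FPKM, fragment numbers divided by transcript length and library size, as the authors deposited them, so levels of different genes can be compared per length. Where 3 values are given for a group, they follow replicates 1 to 3. The summed FPKM of a library lay between 301805 and 310080, but how many fragments stand behind it is unknown. Relative to the first vehicle library, the spacing of low values put depth at 0.945 and 0.985 for the other vehicle libraries and at 1.01, 1.07 and 1.09 for the rhCCL20 libraries, a rough estimate, since the most frequent ratio behind each was shared by 68 to 182 of 2395 to 2556 low genes. The keratins KRT7, KRT8 and KRT18 were abundant, with KRT8 at 605 to 677 FPKM, while KRT19 averaged 0.0314 FPKM. The mesenchymal filament gene VIM lay at 323 to 349 FPKM, while CDH2, also a mesenchymal marker, averaged 0.0525 FPKM. The epithelial markers PAX8 and MUC16 averaged 0.1735 and 0.001 FPKM. EPCAM and CDH1, epithelial adhesion genes, averaged 0.017 and 0.175 FPKM. SKOV3 is known for amplified ERBB2 and deleted CDKN2A. Here ERBB2 averaged 7.83 FPKM, at percentile 47.1 of the tested genes, and CDKN2A averaged 16.4 FPKM, so these levels go against the label and the cells are called by it only. Among the 6 libraries, rhCCL20 replicate 3 lay far from the other 5. Its score on the leading principal component (38.8% of the variance) was 11.7, against scores from -3.96 to -0.74 for the rest. Counts over the list and the fold changes of several members are given below with and without it.

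Most of the list was expressed. Of the 57 members, 52 reached 1 FPKM in at least 3 libraries, the level needed to enter the test. Their median level was 7.27 FPKM, where all 10263 tested genes had a median of 8.62 FPKM. The deacetylase HDAC1 was the most abundant at 44.8 FPKM, followed by the SWI/SNF core subunit SMARCB1 at 35.3 FPKM and BMI1 at 31.4 FPKM, each a mean over the 6 libraries. The 5 members below the level were the PRC1 subunit PHC1, the DNA methylation genes DNMT3L and TET1, and the deacetylases HDAC9 and HDAC11. Replicates lay close together, with a median coefficient of variation within a group of 6.18% for the 52 members and 5.02% for all tested genes.

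**Figure D1:**
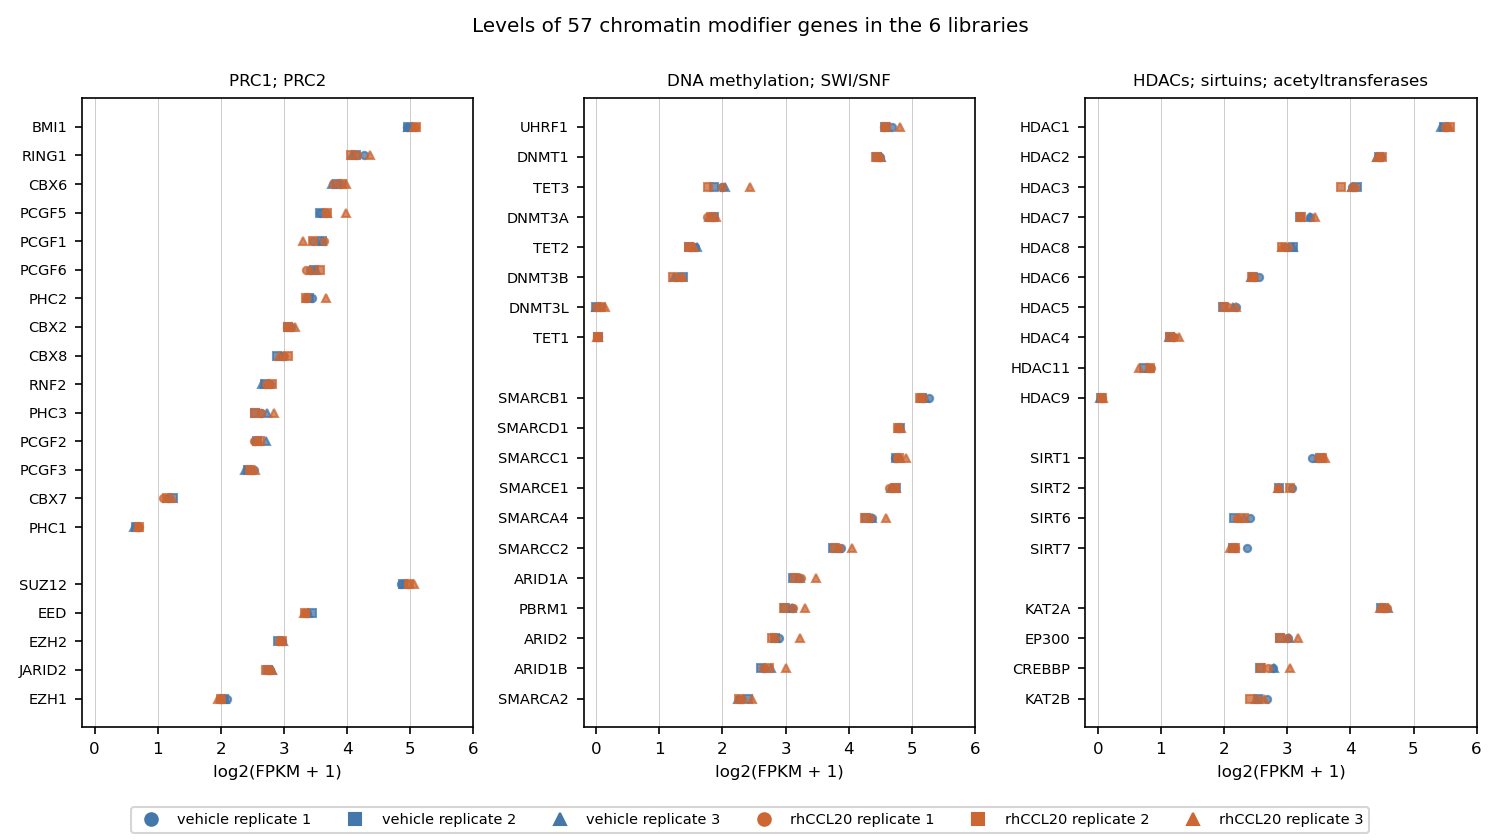
Levels of the 57 chromatin modifiers, one row per gene ordered by mean within each class, on a log2(FPKM + 1) axis; blue marks are the 3 vehicle libraries and orange marks the 3 rhCCL20 libraries. The marks of a gene lie close together in both groups, with HDAC1, SMARCB1 and BMI1 farthest to the right in level and TET1, DNMT3L and HDAC9 near 0.

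The comparison of rhCCL20 with vehicle asks how 24 h of the chemokine alter transcript levels. None of the chromatin modifiers passed the test. Of 52 members tested with limma and Benjamini-Hochberg adjustment over all 10263 genes, 0 were called higher and 0 lower, against 0.00974% of all tested genes called, which is 1 gene. At an unadjusted p under 0.05 there were 2 members, BMI1 and SUZ12, both higher with rhCCL20, beside 4.73% of all tested genes. The smallest adjusted p of a member was 0.937 in limma. The groups did not overlap for 4 members (7.69% of the 52), where 11% of all tested genes had groups that did not overlap. Of these, BMI1 and SUZ12 were higher, beside 6.88% of all tested genes, and EED and EZH1 lower, beside 4.13%. Those shares lie near the background and are no result about the list. The labels concern whole cultures, in which fewer cells with a transcript and less transcript per cell cannot be told apart.

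Fold changes were small, with narrow intervals. Like the p-values, these intervals reflect a spread between libraries that may be only technical, so they may be too narrow for separate cultures. They are differences of log2(FPKM + 1), a scale that shrinks the changes of genes near 0. The median log2 fold change of the 52 members was 0.01, the same as the 0.01 of all tested genes, and single members lay between -0.10 for the deacetylase HDAC8 and 0.17 for the PRC1 subunit PCGF5. The 95% interval of limma lay within 1.5-fold in either direction for all 52 members. Within 1.3-fold it lay for 51 members (98.1%), where 97.6% of all tested genes met that bound. The exception was TET3, with an interval of -0.21 to 0.42.

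**Figure D2:**
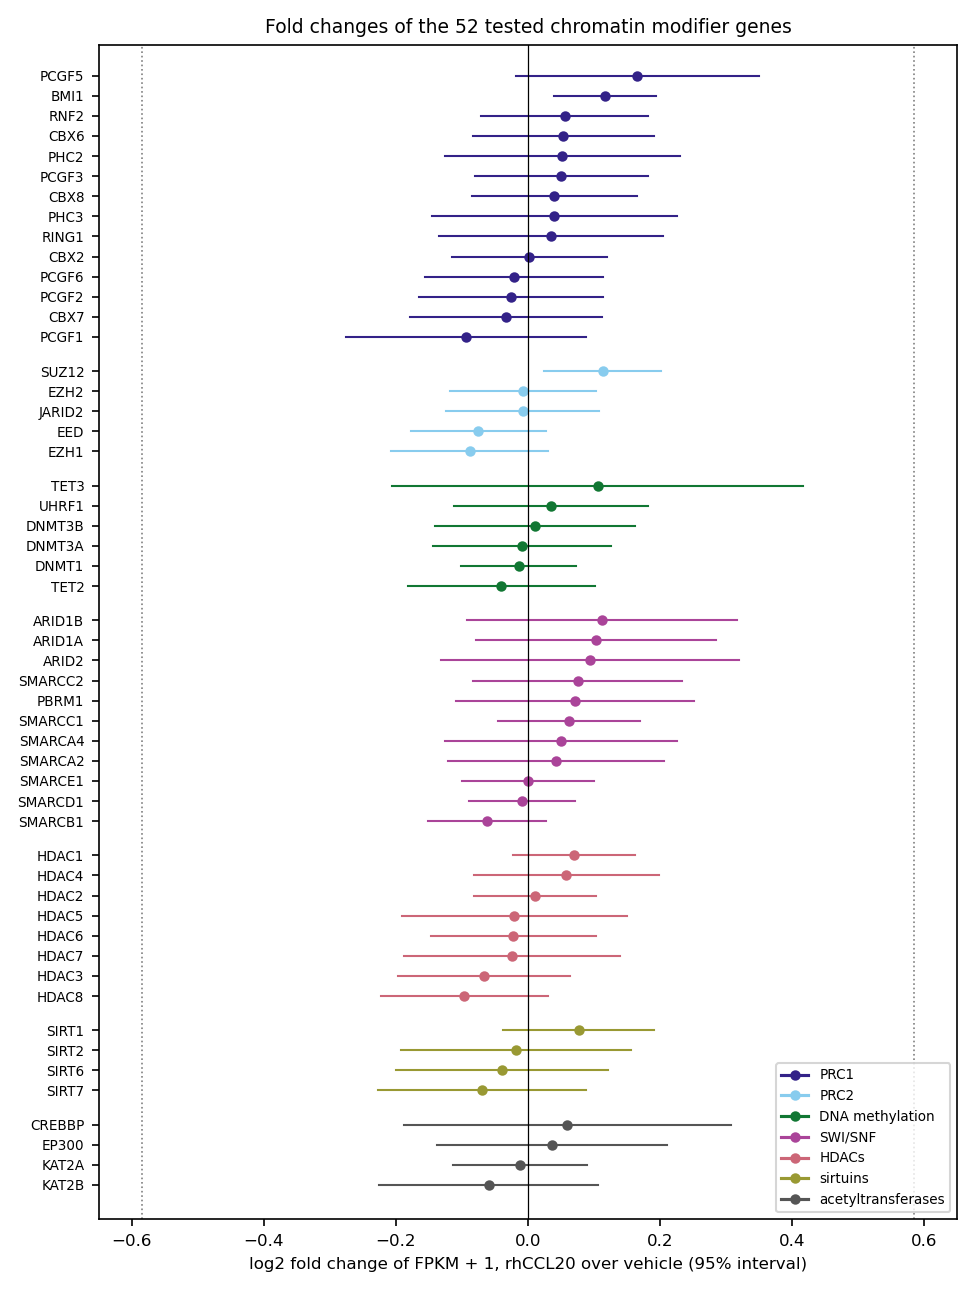
Log2 fold change of FPKM + 1, rhCCL20 over vehicle, for the 52 tested members with 95% intervals of limma; colours mark the 7 classes and dotted lines mark 1.5-fold. All intervals lie inside the dotted lines, and those of BMI1 and SUZ12 lie above 0 without adjustment for the number of genes.

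PRC1 genes were led by BMI1, and 0 of the 14 tested subunits passed the test. BMI1, also called PCGF4, is the Polycomb ring finger protein that stimulates RNF2 and is known for repressing the CDKN2A locus. It lies on chromosome 10 from 22321211 to 22331484 on the forward strand (GRCh38, GENCODE). BMI1 measured 29.9, 30.2 and 30.2 FPKM in the vehicle libraries against 32.8, 33.0 and 32.3 FPKM in the rhCCL20 libraries. All 3 rhCCL20 libraries lay above all 3 vehicle libraries, and the spread within each group was narrow. The group means were 30.1 ± 0.19 and 32.7 ± 0.34 FPKM (SD, n = 3 each), a ratio of 1.09. The log2 fold change was 0.12 (SE 0.035, 95% interval 0.04 to 0.19, unadjusted p = 0.00762, adjusted p = 0.937 in limma). It lay between 0.11 and 0.12 with any library left out, with adjusted p between 0.716 and 1.00 in limma, so BMI1 did not pass in any of these fits.

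Other transcripts at the locus of BMI1 bear on its value, and 2 genes of the separate CDKN2A locus are given after them. The readthrough gene COMMD3-BMI1 shares 1000 exonic bases with BMI1, 23.3% of its exonic length. It was listed at 0.149 FPKM in vehicle replicate 1 and at 3.2e-05 FPKM or less in the other 5 libraries, so little was assigned to it. COMMD3, the upstream neighbour, averaged 35.2 ± 3.3 and 37.2 ± 2.6 FPKM (SD, n = 3 each) with overlapping groups and a log2 fold change of 0.08. CDKN2A had means of 16.2 ± 1.0 FPKM (vehicle) and 16.7 ± 0.63 FPKM (rhCCL20; SD, n = 3 each). CDKN2A reached a log2 fold change of 0.05 (95% interval -0.07 to 0.16, adjusted p = 0.937 in limma). CDKN2B, which encodes a cell cycle inhibitor and neighbours CDKN2A, averaged 5.07 ± 0.04 and 5.20 ± 0.08 FPKM (SD, n = 3 each). The groups of CDKN2B did not overlap, by a narrow gap, as was so for 11% of all tested genes. Its log2 fold change was 0.03 (adjusted p = 0.96 in limma).

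Among the other PCGF subunits, which define the variants of PRC1, levels lay between 4.53 FPKM for PCGF3 and 11.96 FPKM for PCGF5. PCGF2, the closest relative of BMI1, had means of 5.11 ± 0.39 FPKM (vehicle) and 4.99 ± 0.22 FPKM (rhCCL20; SD, n = 3 each), with overlapping groups. BMI1 exceeded it 5.92 ± 0.42-fold in vehicle and 6.56 ± 0.30-fold with rhCCL20 (SD, n = 3 each). PCGF2 overlaps the gene CISD3 on the opposite strand over 1148 exonic bases, and whether counting used strand is not given in the sources used here, so its level is uncertain. PCGF5 measured 10.9, 10.8 and 11.8 FPKM in the vehicle libraries against 11.6, 11.8 and 14.8 FPKM in the rhCCL20 libraries. Its groups overlapped and the highest value was that of rhCCL20 replicate 3. Without that library its log2 fold change went from 0.17 to 0.06. PCGF1 showed the opposite in the same library, where it had its lowest value, 8.81 FPKM, while the other 5 libraries lay between 9.94 and 11.4 FPKM.

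Of the catalytic subunits, RING1 exceeded RNF2. RING1 measured 18.2, 16.6 and 15.9 FPKM in the vehicle libraries against 16.9, 15.7 and 19.5 FPKM in the rhCCL20 libraries, with overlapping groups. RNF2, known as the main ubiquitin ligase of PRC1 in cultured cells, averaged 5.54 ± 0.30 and 5.79 ± 0.24 FPKM (SD, n = 3 each). The ratio of RNF2 to RING1 was 0.328 ± 0.005 in vehicle and 0.337 ± 0.045 with rhCCL20 (SD, n = 3 each). Among the CBX readers, which bind methylated histone H3 in canonical PRC1, CBX6 came first at 13.6 FPKM, then CBX2 at 7.52 and CBX8 at 6.84 FPKM, whose ranges over the 6 libraries overlapped. CBX7 was far lower at 1.26 FPKM.

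The PHC scaffold subunits, which join PRC1 complexes through their SAM domains, also differed in level. PHC2 averaged 9.79 FPKM and PHC3 5.33 FPKM, while PHC1 stayed under 1 FPKM and was not tested. PHC1 measured 0.608, 0.581 and 0.541 FPKM in the vehicle libraries against 0.622, 0.634 and 0.617 FPKM in the rhCCL20 libraries. Its groups did not overlap, by a gap smaller than the range within vehicle. PHC1 shares 1105 exonic bases, 18.1% of its exonic length, with M6PR on the opposite strand, a gene that averaged 49.4 FPKM, so its value is uncertain where strand was not used.

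Levels of the 5 listed PRC2 genes were uneven, with SUZ12 far above the other listed ones. RBBP4 and RBBP7, counted here among the partner genes, averaged 26.4 and 159 FPKM. SUZ12, the subunit around which PRC2 is built, averaged 29.8 FPKM over the 6 libraries. EED, which reads the methyl mark, averaged 9.29 FPKM, the catalytic EZH2 6.74 FPKM, the targeting subunit JARID2 5.82 FPKM and EZH1 3.07 FPKM. No neighbours in this order had overlapping ranges over the 6 libraries. Of the 5 genes 0 passed, and 3 had groups that did not overlap, 1 higher and 2 lower with rhCCL20, where 11% of all tested genes had groups that did not overlap (6.88% higher and 4.13% lower). The 3 did not move in 1 direction, and none passed singly.

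SUZ12 lies on chromosome 17 from 31937018 to 32001045 on the forward strand (GRCh38, GENCODE). It measured 28.05, 28.6 and 29.04 FPKM in the vehicle libraries against 30.2, 30.6 and 32.2 FPKM in the rhCCL20 libraries. All 3 rhCCL20 libraries were the higher ones. Its log2 fold change was 0.11 (SE 0.040, 95% interval 0.02 to 0.20, unadjusted p = 0.0177, adjusted p = 0.937 in limma). It was 0.09 without rhCCL20 replicate 3, the library with the highest value (adjusted p = 0.813 in limma).

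The catalytic subunits EZH2 and EZH1 differed in level and in order between groups. EZH2 measured 6.87, 6.48 and 6.93 FPKM in the vehicle libraries against 6.57, 6.84 and 6.74 FPKM in the rhCCL20 libraries, with overlapping groups. For the log2 fold change the estimate was -0.01 (95% interval -0.12 to 0.10). EZH1, known as the catalytic subunit of resting cells, measured 3.27, 3.14 and 3.17 FPKM in the vehicle libraries against 2.97, 2.99 and 2.88 FPKM in the rhCCL20 libraries. Every rhCCL20 value of EZH1 was the lower (log2 fold change -0.09, 95% interval -0.21 to 0.03, adjusted p = 0.937 in limma). EZH2 exceeded EZH1 2.12 ± 0.06-fold in vehicle and 2.28 ± 0.06-fold with rhCCL20 (SD, n = 3 each), and the groups of this ratio did not overlap. EED measured 9.33, 9.93 and 9.41 FPKM in the vehicle libraries against 9.07, 9.07 and 8.93 FPKM in the rhCCL20 libraries. It was lower in every rhCCL20 library (log2 fold change -0.08, 95% interval -0.18 to 0.03, adjusted p = 0.937 in limma).

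**Figure D3:**
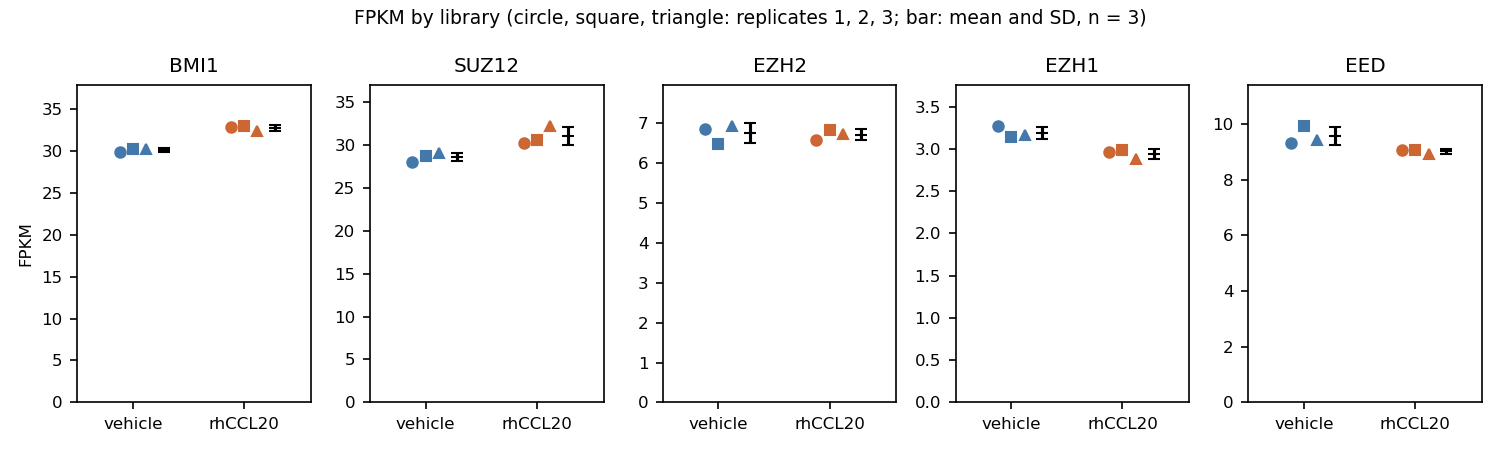
FPKM in each library of BMI1 and 4 PRC2 genes, with axes that start at 0 and bars for the mean and SD of 3 libraries. BMI1 and SUZ12 lie higher and EZH1 and EED lower in all 3 rhCCL20 libraries, EZH2 overlaps, and none of the 5 passed in limma.

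Maintenance of DNA methylation was represented at far higher levels than its establishment. UHRF1, which brings DNMT1 to newly copied DNA, averaged 23.9 FPKM and DNMT1, the maintenance methyltransferase, 21.3 FPKM. The enzymes that methylate new sites were low, with DNMT3A at 2.55 FPKM and DNMT3B at 1.46 FPKM. In each library DNMT3A exceeded DNMT3B, by 1.56 to 1.90-fold. DNMT3L, their catalytically inactive partner of germ cells, was listed at 0.056, 0 and 0 FPKM in the vehicle libraries and 0, 0.053 and 0.102 FPKM in the rhCCL20 libraries. That is near 0 in all 6 libraries and no fold is given.

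None of the 6 tested genes of DNA methylation passed. DNMT1 measured 21.6, 20.9 and 21.8 FPKM in the vehicle libraries against 21.4, 20.7 and 21.5 FPKM in the rhCCL20 libraries. The groups overlapped, and the log2 fold change of DNMT1 was -0.01 (95% interval -0.10 to 0.07). For UHRF1, the value of rhCCL20 replicate 3 was the highest at 27.0 FPKM while the other 5 libraries lay between 22.6 and 24.6 FPKM. The log2 fold change of UHRF1 was 0.03 (95% interval -0.11 to 0.18), and -0.04 without rhCCL20 replicate 3. DNMT3A and DNMT3B had log2 fold changes of -0.01 and 0.01, with overlapping groups.

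The TET enzymes were unequal. TET3 averaged 3.08 FPKM and TET2 1.88 FPKM, while TET1 lay between 0.012 and 0.024 FPKM in the 6 libraries. TET3, the member with the smallest p of its class, measured 2.97, 2.63 and 3.09 FPKM in the vehicle libraries against 2.97, 2.43 and 4.40 FPKM in the rhCCL20 libraries. The groups overlapped, since rhCCL20 replicate 2 had the lowest and rhCCL20 replicate 3 the highest value. Its log2 fold change was 0.11 with all libraries and -0.08 without rhCCL20 replicate 3 (adjusted p = 0.94 and 0.911 in limma), so its direction rests on that library.

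All 11 listed SWI/SNF subunits were expressed and 0 passed. Among these 11 the core subunits stood highest, with SMARCB1 at 35.3 FPKM, SMARCD1 at 26.9, SMARCC1 at 26.7 and SMARCE1 at 25.05 FPKM. The SWI/SNF subunit ACTL6A, counted here among the partner genes, lay above them with a mean of 45.9 FPKM. SMARCB1, which anchors the complex to the nucleosome, measured 37.4, 34.8 and 36.1 FPKM in the vehicle libraries against 35.3, 34.0 and 34.3 FPKM in the rhCCL20 libraries. The groups overlapped, and at -0.06 its log2 fold change had the smallest p of the class (95% interval -0.15 to 0.03, adjusted p = 0.937 in limma). Both scaffold subunits were present. SMARCC1 exceeded SMARCC2 1.99 ± 0.12-fold in vehicle and 1.97 ± 0.12-fold with rhCCL20 (SD, n = 3 each). SMARCC2 shares 514 exonic bases with MYL6 on the opposite strand, a gene that averaged 508 FPKM, SMARCB1 shares 2923 with DERL3 (1.16 FPKM) and PBRM1 146 with SMIM4 (48.1 FPKM). Where strand was not used, their levels and the ratio of SMARCC1 to SMARCC2 are uncertain.

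The ATPases of the complex were unequal in level. SMARCA4, also called BRG1, averaged 19.7 FPKM and SMARCA2, also called BRM, 4.03 FPKM, a ratio of 4.91 ± 0.56 in vehicle and 4.88 ± 0.17 with rhCCL20 (SD, n = 3 each). SMARCA4 measured 19.7, 18.4 and 19.7 FPKM in the vehicle libraries against 19.1, 18.0 and 23.1 FPKM in the rhCCL20 libraries. Its groups overlapped, with the highest value in rhCCL20 replicate 3. Without that library its log2 fold change went from 0.05 to -0.05.

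ARID subunits give each SWI/SNF complex its identity: ARID1A or ARID1B in canonical BAF, and ARID2 with PBRM1 in PBAF. ARID1A measured 8.28, 7.66 and 8.39 FPKM in the vehicle libraries against 8.49, 7.83 and 10.2 FPKM in the rhCCL20 libraries. ARID1B averaged 5.42 ± 0.37 and 5.98 ± 0.96 FPKM, and ARID2 6.24 ± 0.18 and 6.79 ± 1.3 FPKM (SD, n = 3 each). PBRM1 averaged 7.59 FPKM over the 6 libraries. Each of these 4 had its highest value in rhCCL20 replicate 3 and groups that overlapped. Their log2 fold changes lay between 0.07 and 0.11 with all libraries. Without rhCCL20 replicate 3 those of ARID1A and ARID1B were 0.01 and 0.00, and those of ARID2 and PBRM1 were -0.04 and -0.02. The ratio of ARID1A to ARID1B was 1.497 ± 0.065 in vehicle and 1.48 ± 0.13 with rhCCL20 (SD, n = 3 each). SKOV3 is known for truncating mutation of ARID1A; the files hold levels and no sequence, so the allele is not analysed here.

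Zinc-dependent deacetylases spanned a wide range of levels, and 0 of the 8 tested passed. Class I enzymes, the nuclear catalytic subunits of corepressor complexes, led with HDAC1 at 44.8 FPKM, HDAC2 at 20.9 FPKM and HDAC3 at 15.2 FPKM, and HDAC8, which acts on cohesin, was at 7.004 FPKM. Of the class II enzymes, HDAC7 at 8.85 FPKM lay above HDAC8 and below the other class I enzymes, and the rest were lower, with HDAC6 at 4.54, HDAC5 at 3.27 and HDAC4 at 1.27 FPKM. HDAC11 and HDAC9 lay below the tested level. Ranked by level among these 10 members, no neighbours had overlapping ranges over the 6 libraries. HDAC11 ranged from 0.569 to 0.785 FPKM and HDAC9, known from muscle and T cells, from 0.030 to 0.056 FPKM.

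HDAC1 measured 45.4, 43.5 and 42.2 FPKM in the vehicle libraries against 44.4, 46.9 and 46.4 FPKM in the rhCCL20 libraries. Its groups overlapped through vehicle replicate 1, and its log2 fold change was 0.07 (95% interval -0.02 to 0.16). HDAC2 averaged 20.8 ± 0.51 and 21.0 ± 0.67 FPKM (SD, n = 3 each). The ratio of HDAC1 to HDAC2 was 2.10 ± 0.03 in vehicle and 2.19 ± 0.07 with rhCCL20 (SD, n = 3 each), and its groups did not overlap. HDAC8, with the smallest p of its class, measured 6.804, 7.48 and 7.53 FPKM in the vehicle libraries against 7.09, 6.56 and 6.56 FPKM in the rhCCL20 libraries. The groups overlapped, and its log2 fold change was -0.10 (95% interval -0.22 to 0.03, adjusted p = 0.937 in limma). The ratio of HDAC4 to HDAC5 was 0.372 ± 0.032 and 0.406 ± 0.007 (SD, n = 3 each) with overlapping groups.

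Of the sirtuins, the NAD-dependent deacetylases, SIRT1 was the highest and 0 of 4 passed. SIRT1, which deacetylates p53 and histones, measured 9.53, 10.4 and 10.2 FPKM in the vehicle libraries against 10.3, 10.7 and 11.1 FPKM in the rhCCL20 libraries. The groups overlapped by a small margin (log2 fold change 0.08, 95% interval -0.04 to 0.19, adjusted p = 0.937 in limma). SIRT2, mainly a tubulin deacetylase of the cytoplasm, averaged 6.62 FPKM. SIRT6, a nuclear enzyme of telomeric chromatin and repair, averaged 3.84 FPKM and the nucleolar SIRT7 3.54 FPKM, with overlapping ranges. SIRT7 had its highest value, 4.12 FPKM, in vehicle replicate 1 and lay between 3.25 and 3.53 FPKM in the other 5 libraries. Its log2 fold change was -0.07 (95% interval -0.23 to 0.09).

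Among the 4 listed acetyltransferases KAT2A was the highest, and 0 of 4 passed. The acetyltransferase HAT1, counted here among the partner genes, lay above it with a mean of 41.2 FPKM. KAT2A, also called GCN5 and the catalytic subunit of SAGA, averaged 22.3 ± 0.78 and 22.1 ± 0.90 FPKM (SD, n = 3 each). KAT2B, also called PCAF, had the smallest p of its class and averaged 4.97 ± 0.41 and 4.73 ± 0.46 FPKM (SD, n = 3 each), with a log2 fold change of -0.06 (adjusted p = 0.941 in limma). KAT2A exceeded it 4.50 ± 0.44-fold and 4.69 ± 0.56-fold (SD, n = 3 each). The coactivators EP300 and CREBBP, near relatives that acetylate histone H3 at enhancers, averaged 7.02 and 5.73 FPKM. CREBBP measured 5.84, 4.91 and 5.95 FPKM in the vehicle libraries against 5.46, 5.00 and 7.21 FPKM in the rhCCL20 libraries. EP300 followed the same order of libraries in part, with its highest value, 8.05 FPKM, in rhCCL20 replicate 3 and its lowest, 6.35 FPKM, in rhCCL20 replicate 2. The ratio of CREBBP to EP300 was 0.804 ± 0.034 and 0.821 ± 0.065 (SD, n = 3 each), below 1 in every library.

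Of the 12 ratios between related or partner genes, 3 had groups that did not overlap, those of EZH2 to EZH1, BMI1 to PCGF2 and HDAC1 to HDAC2. Each was higher with rhCCL20, a direction that depends on which gene is put first. Without vehicle replicate 2 the number was 5. EZH1 and BMI1, which enter these ratios, had groups that did not overlap by themselves. The share among ratios of other genes was not computed, so the count is no result about these pairs. A ratio of DNMT1 to UHRF1 was among the overlapping ones, at 0.910 ± 0.030 in vehicle and 0.880 ± 0.076 with rhCCL20 (SD, n = 3 each).

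Among the chromatin modifiers 1 library stood apart more than the groups did, the same library as over all tested genes. In rhCCL20 replicate 3, 27 of the 52 tested members (51.9%) had their highest value of the 6 libraries, as did 37.1% of all tested genes. It held the highest value of 9 of 11 SWI/SNF subunits, 7 of 14 PRC1 genes and 3 of 6 DNA methylation genes. In the other classes it held that of 3 of 8 HDACs, 2 of 4 acetyltransferases, 2 of 5 PRC2 genes and 1 of 4 sirtuins. It also held the lowest value of 2 of the 5 PRC2 genes. Most tested partner genes had their highest value in that library too, so this was not particular to the members. The median deviation of the members from their 6-library mean was 0.06 on the log2 scale there, beside 0.03 for all tested genes. In rhCCL20 replicate 2, by contrast, 15 members (28.8%) had their lowest value, beside 20% of all tested genes. Leaving out rhCCL20 replicate 3 turned the majority. With it, 29 of 52 members had log2 fold changes above 0, beside 57.8% of all tested genes, and without it 16 of 52 did (30.8%), beside 49.2%. The members' median log2 fold change went from 0.01 to -0.02, and 0 members passed either way in limma. Among SWI/SNF subunits the number above 0 went from 9 to 3 of 11, and the median from 0.06 to -0.02. Neither BMI1 nor SUZ12 changed direction without that library.

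**Figure D4:**
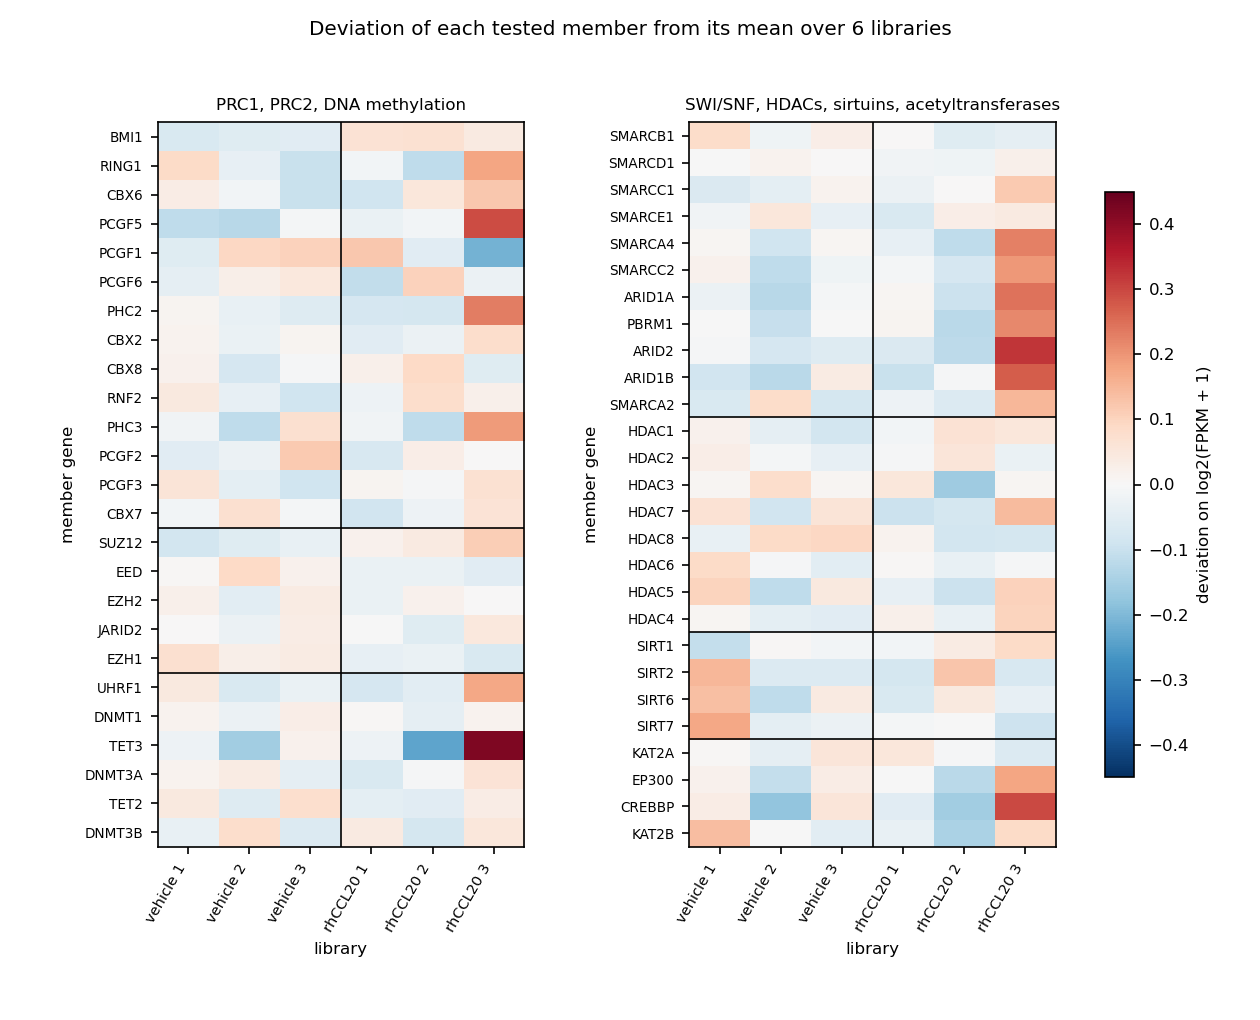
Deviation of each of the 52 tested members from its own mean over the 6 libraries, on log2(FPKM + 1); red is above and blue below the mean, rows are genes by class and columns are libraries, with a line between vehicle and rhCCL20. The rhCCL20 replicate 3 column is mostly red, most strongly for TET3, ARID2, CREBBP and PCGF5, while BMI1 is above its mean in all 3 rhCCL20 libraries.

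Members with long transcripts deviated most in that library. Length here is that of the longest protein-coding transcript in GENCODE, and this relation was looked at after the values were seen. Across the 52 members, which are not independent replicates and share the library, Spearman's rho between length and the deviation of rhCCL20 replicate 3 from the mean of the other 5 libraries was 0.585. Across 10168 tested genes with a length it was 0.475. In vehicle replicate 2 rho had the opposite sign, -0.34 in members and -0.394 in all genes. It was -0.389 and -0.279 in rhCCL20 replicate 2. In members it was -0.23 in vehicle replicate 1, 0.071 in vehicle replicate 3 and -0.077 in rhCCL20 replicate 1. For each of these libraries the mean of the other 5 includes rhCCL20 replicate 3, so their rho is not independent of that library. TET3, with a longest transcript of 11388 bases, stood 0.50 above the other libraries on the log2 scale in rhCCL20 replicate 3. PCGF1, with 1792 bases, stood 0.25 below, a deviation of -0.25. Among the 26 longer members 18 had log2 fold changes above 0 with all libraries and 8 without rhCCL20 replicate 3. Among the 26 shorter members 11 and 8 did. BMI1, at 3428 bases, deviated by 0.05 in that library. The part of transcript length in any member's fold change was not tested.

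**Figure D5:**
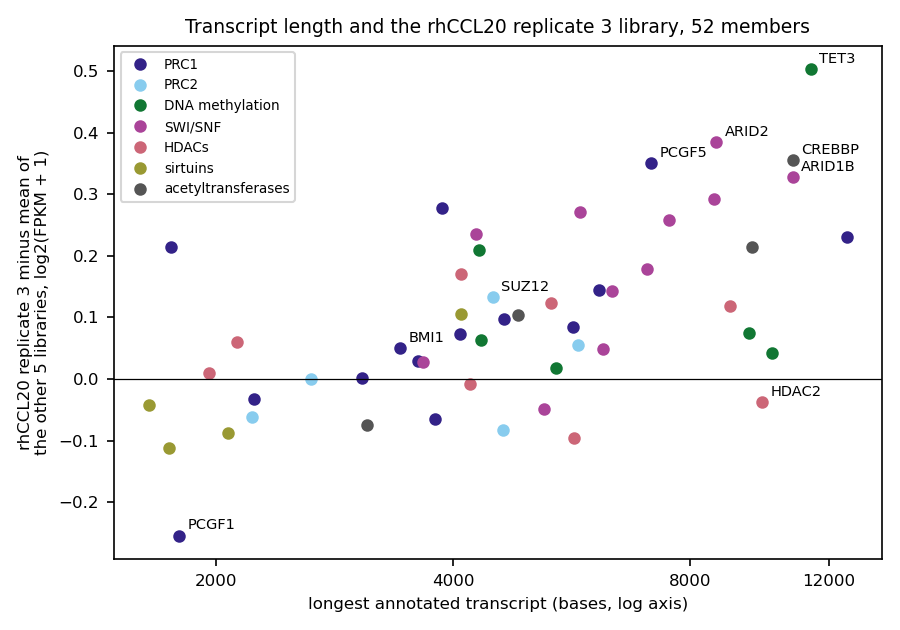
Deviation of rhCCL20 replicate 3 from the mean of the other 5 libraries on log2(FPKM + 1), against the longest annotated transcript in bases on a log axis, for the 52 tested members coloured by class. Points rise to the right, from PCGF1 at -0.25 to TET3 at 0.50, with HDAC2 among the long exceptions and BMI1 near 0.

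Partner genes of the same complexes did not pass either. Of 72 further genes, listed by function, 71 were in the files and 68 were tested. In limma 0 rose and 0 fell, 4 had an unadjusted p under 0.05 (5.88%, beside 4.73% of all tested genes), and the median log2 fold change was 0.02. Groups did not overlap for 4 of the 68 (5.88%), beside 11% of all tested genes, so neither share is a result about the partners. The PRC1 partner L3MBTL2, which belongs to a variant complex with PCGF6, measured 7.86, 8.18 and 7.94 FPKM in the vehicle libraries against 7.03, 7.09 and 7.11 FPKM in the rhCCL20 libraries. All rhCCL20 values were the lower (log2 fold change -0.15, 95% interval -0.26 to -0.05, unadjusted p = 0.00728, adjusted p = 0.937 in limma). MGA, of the same variant complex, was the most abundant PRC1 partner, with a log2 fold change of 0.01. PHF1, a PRC2 partner that reads histone H3, reached a log2 fold change of -0.24 (95% interval -0.42 to -0.05, adjusted p = 0.937 in limma) with overlapping groups. RBBP7, a histone chaperone shared by PRC2 and deacetylase complexes, was the most abundant partner of all at 154 to 165 FPKM, with a log2 fold change of 0.02.

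In the other partner lists 0 genes passed as well. Of the genes that oppose Polycomb marks, the deubiquitinase BAP1 was the most abundant and had the smallest p, with a log2 fold change of 0.06. In the list of MBD genes and other genes tied to DNA methylation, MBD3 was the highest, at 30.3 to 36.0 FPKM. The glycosylase TDG had the smallest p of that list, with a log2 fold change of 0.05 (unadjusted p = 0.184, adjusted p = 0.937 in limma). ACTL6A, an actin-related SWI/SNF subunit, lay at 43.2 to 49.0 FPKM with a log2 fold change of 0.04. DPF1, a SWI/SNF subunit known from neurons, had a log2 fold change of 0.27 at about 1 FPKM (95% interval 0.01 to 0.52, adjusted p = 0.937 in limma). Of the deacetylase partners, the NuRD subunit MTA2 was the most abundant and MTA1 had the smallest p, with log2 fold changes of 0.06 and 0.08. HDAC10, a deacetylase of polyamines, reached a log2 fold change of -0.22 (95% interval -0.43 to -0.02, adjusted p = 0.937 in limma), with its groups overlapping through vehicle replicate 2, and the mitochondrial SIRT3 one of -0.09. For the acetyltransferases HAT1 and KAT6B the log2 fold changes were 0.01 and 0.10.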

How the data were processed

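Each file gives deposited FPKM values for 1 library, with 1 value per gene symbol, per the file headers. Tools listed in the submitters' processing notes are HISAT2, Trimmomatic, HTSeq and Cufflinks, and the build is GRCh38; the sources used here do not give their versions, order, strand setting or gene models. Libraries were made from total RNA with Trizol and a TruSeq RNA kit, per the labels. Depth is unknown, so no counting intervals are given.

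A gene was tested if 3 or more libraries reached 1 FPKM. The test was limma 3.58.1 (R 4.3.3; eBayes with trend, two-sided) of group on log2(FPKM + 1), with a Benjamini-Hochberg adjusted p of 0.05 over all tested genes. With 3 libraries in each group, exact permutation could reach p = 0.1 at best. On simulated data of 10263 genes with 200 changed, the procedure recovered 98.1% of genes changed 2-fold and 93% of those changed 1.5-fold. Of its calls 4.35% were false. Noise was drawn independently per gene, without the deviation that genes share in rhCCL20 replicate 3. Changes below 1.5-fold, where the estimates of all tested members lay, were not simulated, so their recovery is unknown.

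The members, partner lists and ratios were chosen with earlier results of these data known. Values are printed for BMI1, for the highest, lowest and smallest-p member of each class, members with an unadjusted p under 0.05 or a mean under 1 FPKM, the ratio pairs, and the smallest-p and most abundant partner of each list; other members serve as examples of a role. EED, PCGF5, PCGF1 and ARID2 were singled out after their values were seen. Positions, overlaps and lengths follow GENCODE on GRCh38, and the authors may have used other gene models. Libraries with the same number correlated at -0.101, 0.035 and 0.097 in deviations from their group means. Libraries with unlike numbers correlated at -0.119 to 0.131. With 3 libraries in each group such correlations cannot settle whether samples were handled in pairs, and the main fit used no pairing. Settings varied were the pseudocount, the filter, the normalization, eBayes, a replicate block, and which library was left out.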

Additional observations from a re-analysis of the deposited data

How the results depend on the processing

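Members called numbered 0 and partner genes called 0 under each of the 15 alternatives in limma, and the 751 alternative fold changes of single members other than BMI1 stayed on the same side of the threshold. BMI1 kept its direction, between 0.104 with quantile normalization and 0.124 without rhCCL20 replicate 3, with adjusted p between 0.716 and 1.00 in limma. With the replicate number as a block 0 members passed, 3 had an unadjusted p under 0.05, and BMI1 had an adjusted p of 0.856; the block changed no call. Over all genes, GAGE12G alone passed (1 gene), and 0 with no filter on low values, where 861 genes had an unadjusted p under 0.05; leaving out each library gave 1 to 3, the 3 without vehicle replicate 1. Members whose groups do not overlap numbered 4 (7.69%, beside 11% of all tested genes), and 6 to 10 with a library left out. The number was 9 without vehicle replicate 1, 10 without vehicle replicate 2, and 10, 8 and 8 without rhCCL20 replicates 1, 2 and 3. By construction fewer samples have to be separated there. The share of all tested genes with a library left out was not computed, so these counts are no result about the members. Ratios with groups that do not overlap numbered 3, and 3 to 5 with a library left out. The members' median log2 fold change lay between -0.0244 without rhCCL20 replicate 3 and 0.0359 with the filter at 5 FPKM. Of the 52 members, 17 changed sign without rhCCL20 replicate 3, and 3 with quantile normalization. Unknown depth limits what can be said of the 5 members under 1 FPKM.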
